A study of Mus musculus with 6 samples.

Results

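The 10 genes described here encode transcription factors that set intestinal identity or rise as enterocytes mature, namely Hnf4a, Hnf4g, Cdx1, Cdx2, Gata4, Gata6, Maf, Creb3l3, Ppara and Klf5. They were chosen by symbol, each symbol matched exactly 1 row, and they are 10 of the 32285 genes of the deposited tables. In mouse small intestinal organoids, levels of Creb3l3, Maf, Ppara and Hnf4g climbed from stem to mature enterocyte cells in each of 6 libraries. Hnf4a, Cdx2 and Gata6 differed little between these classes. In early enterocyte-like cells, which lie between them, Hnf4a was higher and Gata6 lower than in both in each library. With EIPA, an amiloride derivative that blocks sodium-proton exchange, both libraries stood above both controls for Maf and Creb3l3 in early and mature enterocyte-like cells, and below both for Cdx1 and Klf5. With 2 libraries against 2, groups often separate in this way by chance alone, and the share of all genes that did was not counted. In the main edgeR fits of these classes no member passed an adjusted p of 0.05 when the 2 experiments were left out of the model, though some passed with other filters, libraries or clusters, as given below. With the experiments in the model, 3 members passed in stem-like, 5 in early and 1 in mature enterocyte-like cells, where 6.81%, 8.01% and 4.47% of all genes did.

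Small intestinal organoids are self-organizing epithelial cultures with crypt-like buds. The stocks were obtained from adult mice of 10 weeks, and libraries were made on day 3 in ENR medium (EGF, Noggin and R-spondin). WT organoids received the DMSO vehicle (-EIPA, n = 2 libraries) or 5 µM EIPA (+EIPA, n = 2), in 2 experiments, each with 1 library of either kind. The CRISPR-Cas9 organoids are WT organoids that carry a lentiviral vector with Dox-inducible Cas9-EGFP and a guide RNA. They were grown as single clones without Dox (-Dox, n = 1) or with 2 µg/mL Dox (+Dox, n = 1), doses being those of the methods. Sorting kept live cells, and in +Dox live GFP-positive cells alone, so the agent and the gate cannot be told apart there.

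Each value counts unique molecular identifiers (UMIs) read from 3′ ends of transcripts. Limits of at least 1000 genes and under 20% mitochondrial UMIs kept 12083 to 18211 cells per library (87954 in all) at median depths of 11477.5 to 17020 UMIs, and libraries shared 33 to 78 barcodes pairwise. Cells were clustered without the members or their listed target genes, and clusters were named from marker genes. ISC-like cells (intestinal stem cells, with markers such as Lgr5 and Olfm4, 1064 to 2168 cells per library), proliferating-like cells, early enterocyte-like cells (762 to 1634) and mature enterocyte-like cells (2311 to 4017) form the absorptive series used below. A level is a gene's UMIs scaled to a total of 1000000 UMIs (CPM) and summed over the cells of 1 class in 1 library. The 16 mature enterocyte markers summed to 1057–1779 CPM in ISC-like, 3088–10684 CPM in early and 27316–58578 CPM in mature enterocyte-like cells. The 12 early enterocyte markers summed to 3672–5528 CPM in early and 3897–5925 CPM in mature enterocyte-like cells, so they do not set these classes apart. The early cluster was named from 2 markers, Dmbt1 and Krt19, among its 20 leading genes. Markers of immune, stromal and endothelial cells summed to at most 17.0 CPM over all cells kept.

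As background, HNF4A and HNF4G are nuclear receptors that bind the same motif and keep brush border and lipid genes active in villus cells. CDX1 and CDX2 are homeodomain factors that define intestinal against gastric fate, and GATA4 and GATA6 are zinc finger factors, with GATA4 restricted to the proximal small intestine. MAF, CREB3L3 and PPARA act late: MAF supports absorptive genes, CREB3L3 is a membrane-bound bZIP factor of lipoprotein metabolism that is released by proteolysis, and PPARA is the receptor that fatty acids activate to drive their oxidation. KLF5 is a zinc finger factor best known from dividing crypt cells.

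On the GRCm38 (mm10) build with GENCODE annotation, Hnf4a (ENSMUSG00000017950) lies at chr2:163506808-163572910 on the plus strand, and the antisense gene Hnf4aos overlaps its 5′ part (chr2:163493807-163541720) but not its 3′ end. Hnf4g (ENSMUSG00000017688) lies at chr3:3508030-3658052 (plus), Cdx2 (ENSMUSG00000029646) at chr5:147300805-147307270 (minus), Cdx1 (ENSMUSG00000024619) at chr18:61018862-61036199 (minus), Gata4 (ENSMUSG00000021944) at chr14:63198922-63271692 (minus) and Gata6 (ENSMUSG00000005836) at chr18:11052064-11085635 (plus). Maf (ENSMUSG00000055435) lies at chr8:115682942-115707794 (minus), Creb3l3 (ENSMUSG00000035041) at chr10:81084324-81098874 (minus), Ppara (ENSMUSG00000022383) at chr15:85734983-85802819 (plus) and Klf5 (ENSMUSG00000005148) at chr14:99298691-99315036 (plus). All 10 are protein-coding genes, and the counts do not separate their exons or isoforms.

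The first question was how the factors change along the absorptive lineage. Classes were built from the same cells, so class against class is described here without a test. Of the 10 members, 7 were higher in mature enterocyte-like than in ISC-like cells in all 6 libraries (Hnf4a, Hnf4g, Gata4, Maf, Creb3l3, Ppara and Klf5), against 31.3% of 7971 genes with at least 10 CPM in either class. Cdx1 alone among them was lower in all 6, against 51.4% of these genes. Cdx2 and Gata6 did not keep 1 direction. These directions depend partly on how classes were drawn: Hnf4a was higher in 4 of 6 libraries with classes from marker scores, Klf5 in 5 of 6 with uncorrected clusters, and Gata6 in 6 of 6 with either and with likely doublets removed. Maf, Creb3l3 and Ppara averaged 10 CPM or more in the mature class but not in the ISC-like class. The limit itself therefore favoured their direction, and their part of the count is no support. The same applies below to list genes kept through the mature class alone.

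**Figure D1:**
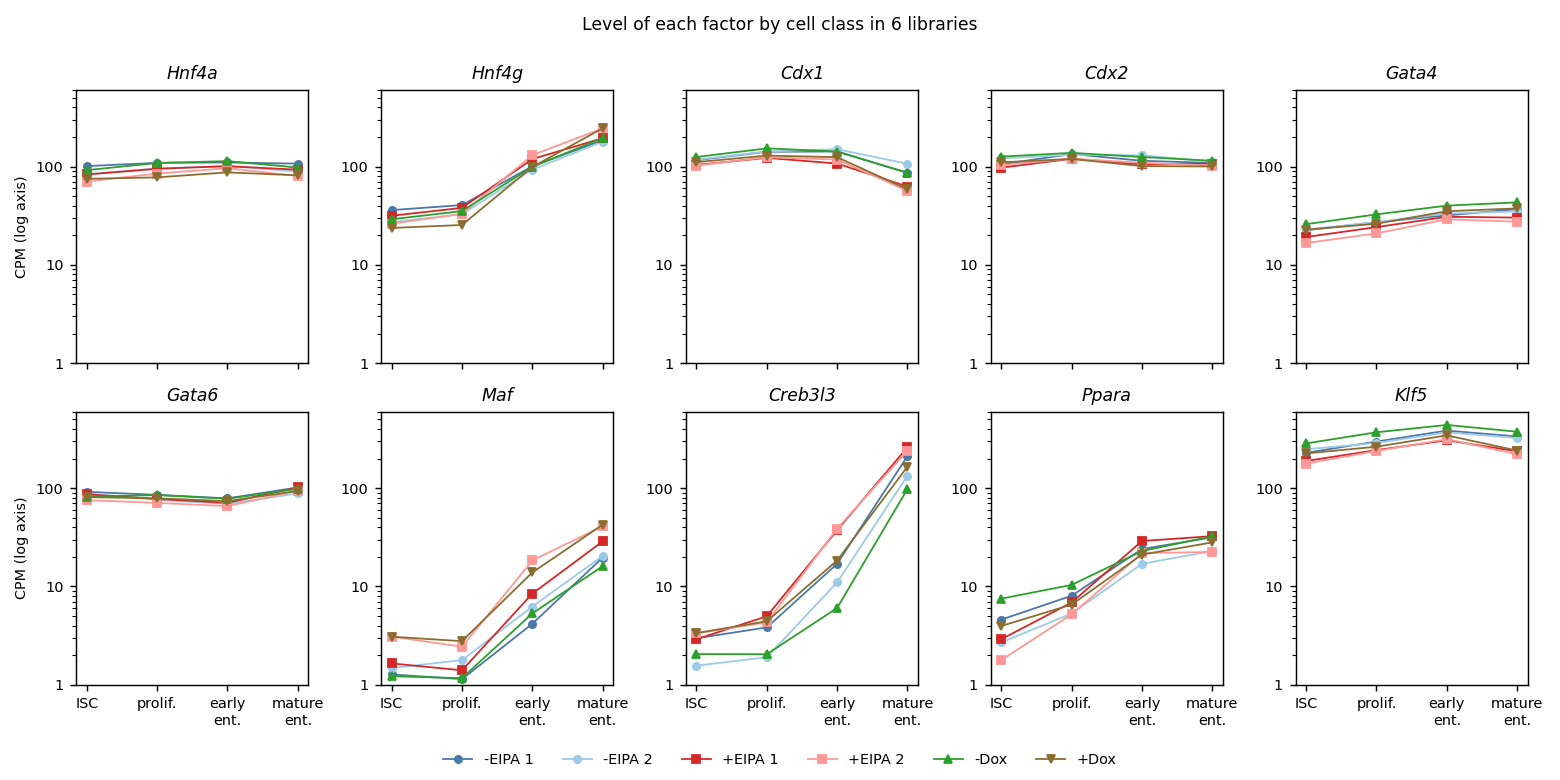
Level of each factor (CPM, log axis) in ISC-like, proliferating-like, early and mature enterocyte-like cells, with 1 line per library. Creb3l3, Maf, Ppara and Hnf4g climb in each library, and Hnf4a, Cdx2 and Gata6 differ little between the ISC-like and the mature class.

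Creb3l3 had the highest ratio of mature to ISC-like level among the members. Its mature enterocyte-like level was 212 and 134 CPM in the -EIPA libraries, 260.4 and 240.4 CPM in the +EIPA libraries, 98.0 CPM in -Dox and 166 CPM in +Dox. The ISC-like level lay between 1.56 and 3.35 CPM, so the ranges were far apart, and the log2 ratio of mature to ISC-like was 5.58 to 6.49 (median 6.17). Early enterocyte-like cells lay between at 6.04 to 38.8 CPM. Paneth-like, Goblet-like, EEC-like (enteroendocrine) and tuft-like cells held 4.16 to 33.0 CPM, above the ISC-like cells of the same library in each case. Median depths were 9927 to 14481.5 UMIs in ISC-like and 9432 to 14292 UMIs in Paneth-like cells. The ISC-like level may therefore be background, which was not measured here, and the ratio is then a lower bound.

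Maf showed the same shape at fewer UMIs. Mature enterocyte-like cells had 19.7 and 20.4 CPM without EIPA, 28.7 and 41.0 CPM with EIPA, 16.1 CPM without Dox and 42.5 CPM with Dox. ISC-like cells had 1.22 to 3.09 CPM, below the Paneth-like cells (5.12 to 9.70 CPM) of every library, and this level too may be background. The log2 ratio of mature to ISC-like was 3.72 to 4.13, again a lower bound if so.

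Ppara, the fatty acid receptor, climbed early. It had 1.78 to 7.51 CPM in ISC-like, 17.0 to 29.0 CPM in early and 22.4 to 32.5 CPM in mature enterocyte-like cells. Most of its climb therefore lay between the ISC-like and the early class (log2 ratio 1.61 to 3.62), with 0.04 to 0.50 added between early and mature. Its ISC-like level lay below the Paneth-like one in 5 of 6 libraries, so it may be background as well.

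Promoters of 4 members (Hnf4a, Cdx2, Creb3l3 and Ppara) were matched in RefSeq on GRCm38.p6, each window running from 250 bases before to 50 after a start site. They are shown for Creb3l3, the member with the highest ratio, which has 2 start sites, for Ppara, which climbed with it, and for Cdx2, which did not. Capitals mark matches on either strand to the letters CAAAGTCCA of the HNF4 motif, TTTATG of the CDX motif, AGATAA of the first GATA motif, TGATAA of the second GATA motif, TGACGT at the core of the cyclic AMP response element that bZIP factors bind, AGGTCA of the nuclear receptor site, CCACCC of the KLF motif, GTTAAT of the HNF1 motif and TGCTGAC of the MAF motif.
Creb3l3, chr10:81098823-81099122, minus strand: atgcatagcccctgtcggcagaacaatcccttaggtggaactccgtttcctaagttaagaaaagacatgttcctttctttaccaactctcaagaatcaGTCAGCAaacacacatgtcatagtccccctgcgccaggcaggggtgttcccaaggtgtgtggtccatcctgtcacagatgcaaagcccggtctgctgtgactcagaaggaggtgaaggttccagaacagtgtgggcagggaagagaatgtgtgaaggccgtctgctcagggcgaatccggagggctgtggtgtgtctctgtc
Creb3l3, chr10:81092542-81092841, minus strand: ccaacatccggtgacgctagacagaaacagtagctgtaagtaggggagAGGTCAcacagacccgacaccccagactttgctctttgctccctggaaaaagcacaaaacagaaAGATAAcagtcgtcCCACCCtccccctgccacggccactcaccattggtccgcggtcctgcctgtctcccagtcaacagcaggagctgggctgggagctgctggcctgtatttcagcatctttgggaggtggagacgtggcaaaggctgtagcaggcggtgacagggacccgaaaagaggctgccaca
Ppara, chr15:85735526-85735825, plus strand: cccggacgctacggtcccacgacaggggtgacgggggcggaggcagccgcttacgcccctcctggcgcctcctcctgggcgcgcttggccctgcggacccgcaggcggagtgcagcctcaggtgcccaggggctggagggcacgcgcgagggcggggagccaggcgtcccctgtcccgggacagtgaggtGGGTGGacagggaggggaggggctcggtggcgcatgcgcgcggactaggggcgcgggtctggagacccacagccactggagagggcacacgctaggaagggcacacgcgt
Cdx2, chr5:147307200-147307499, minus strand: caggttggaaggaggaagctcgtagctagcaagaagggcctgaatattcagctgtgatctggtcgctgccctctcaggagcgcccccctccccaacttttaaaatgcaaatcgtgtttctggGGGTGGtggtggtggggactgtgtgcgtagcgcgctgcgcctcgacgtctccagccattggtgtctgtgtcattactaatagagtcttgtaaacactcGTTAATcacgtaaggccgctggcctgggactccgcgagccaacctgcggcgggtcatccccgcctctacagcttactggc

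The upstream Creb3l3 window held 1 match, the MAF letters on the opposite strand 152 bases before the start site. The other Creb3l3 window held the nuclear receptor, first GATA and KLF letters once each, the Ppara window the KLF letters once and the Cdx2 window the KLF and the HNF1 letters once each. Of the 2 Hnf4a windows, the downstream one (chr2:163546905-163547204) held the HNF1 letters at 2 places on the opposite strand and the KLF letters at 2 places, and the upstream one (chr2:163506607-163506906) the first GATA letters once and the KLF letters at 2 places. Over all 32851 promoter windows, the KLF letters were present in 31.5%, the nuclear receptor letters in 16.3%, the CDX letters in 11.9%, the first GATA letters in 11.2%, the second GATA letters in 9.05%, the response element core in 7.51%, the HNF1 letters in 7.10%, the MAF letters in 4.67% and the HNF4 letters in 0.475%. None of the 6 windows held the HNF4, CDX or second GATA letters or the response element core.

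The nuclear receptor pair behaved differently from each other. Hnf4g was at 36.1, 27.2, 31.6, 26.2, 29.1 and 23.7 CPM in ISC-like cells (in the order -EIPA 1 and 2, +EIPA 1 and 2, -Dox, +Dox) and at 186, 179, 194, 245, 196 and 245 CPM in mature enterocyte-like cells. Every mature value lay above every ISC-like value, with a log2 ratio of 2.36 to 3.37. ISC-like levels lay below those of Paneth-like cells (29.7 to 39.0 CPM) in each library. A part of them may be background, and the ratio is then a lower bound, but that part was not measured. Without EIPA, Hnf4g had 36.1 and 27.2 CPM in ISC-like cells against 71.9 and 57.4 CPM over all cells kept. For Creb3l3 these levels were 2.97 and 1.56 CPM against 44.3 and 22.0 CPM. Hnf4a was at 70.5 to 101 CPM in ISC-like and 80.4 to 107 CPM in mature enterocyte-like cells, and these ranges overlapped, the ratio being positive but small in each library (0.08 to 0.19). Its early enterocyte-like level was the highest of the 3 classes in each library (87.4 to 114 CPM).

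Among the homeodomain factors, Cdx2 had 97.5 to 126 CPM in ISC-like and 100.3 to 115 CPM in mature enterocyte-like cells, with 2 of 6 libraries higher in the mature class. Cdx1 had 102 to 125 CPM in ISC-like, 107 to 150.3 CPM in early and 56.7 to 107 CPM in mature enterocyte-like cells. The early level was above the ISC-like one and the mature level below it in each of 6 libraries (log2 ratio of mature to ISC-like -0.92 to -0.14), though with uncorrected clusters the early level was above in 5 of 6. This difference was smallest in -EIPA replicate 2.

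Gata4 was modestly higher along the series, from 16.7–25.9 CPM in ISC-like to 27.5–43.3 CPM in mature enterocyte-like cells (log2 ratio 0.61 to 0.74), and most of that difference was already present in the early class (29.1 to 40.1 CPM). Gata6 ran the other way between the first classes: it was lower in early (65.6 to 78.7 CPM) than in ISC-like cells (75.4 to 91.7 CPM) in 6 of 6 libraries (5 of 6 with uncorrected clusters), and the mature level (88.4 to 102 CPM) was above the early one in 6 of 6. Klf5 was highest in early enterocyte-like cells (307 to 439.7 CPM), with 178 to 285 CPM in ISC-like and 221 to 375 CPM in mature enterocyte-like cells.

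Within the mature class, the 3 largest clusters, each called by its leading gene, differed in which factor was highest. Creb3l3 was highest in the Fabp1-led cluster in 5 of 6 libraries, with 323 and 228 CPM without EIPA against 122 and 78.4 CPM in the Gstm3-led cluster. Hnf4a was highest in the Apoa4-led cluster in 6 of 6 libraries (147 to 213 CPM against 66.8 to 81.6 CPM in the Fabp1-led cluster). Maf was also highest in the Apoa4-led cluster in each library, with 31.7 and 26.6 CPM under vehicle against 70.6 and 87.7 CPM under EIPA. Cdx1 and Klf5 were lower in the Fabp1-led than in the Gstm3-led cluster in each library. The Apoa4-led cells were shallow (median 4257 UMIs) with 14.5% mitochondrial UMIs, against 14110.5 UMIs and 5.62% in the Fabp1-led cluster, and the part of depth in these levels was not tested.

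**Figure D2:**
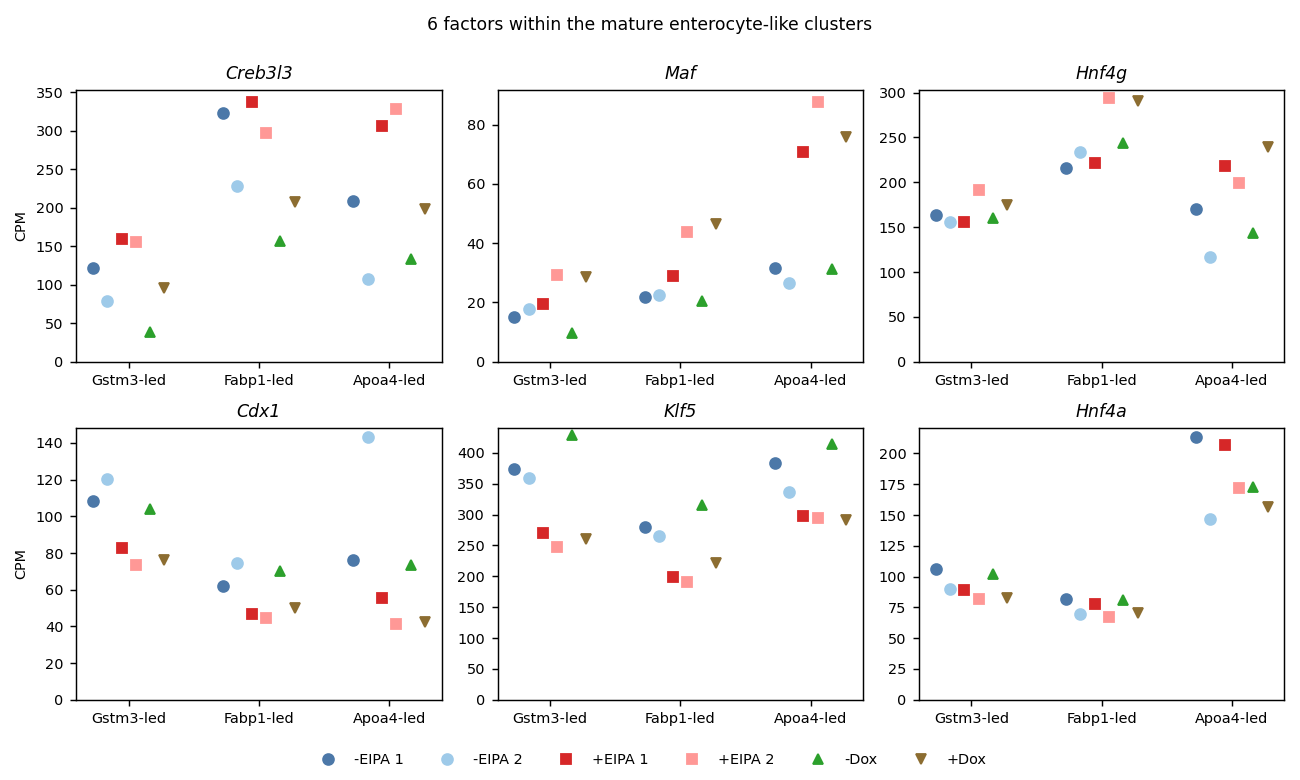
Levels (CPM) of 6 factors in the mature clusters led by Gstm3, Fabp1 and Apoa4, with 1 point per library. Hnf4a and Maf are highest in the Apoa4-led cluster, and Cdx1 is higher in the Gstm3-led than in the Fabp1-led cluster in each library.

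The genes most alike to each member were ranked by Pearson's r of log2(CPM + 1) over 54 values (9 named classes in 6 libraries, which share cells' libraries and depth), as a description without a test. Creb3l3 was most like 2010106E10Rik (r = 0.98), Gsta1 (0.97) and Adh6a (0.97), and Maf was most like Alpi, the brush border phosphatase, Creb3l3 itself and Gsta1 (each 0.92). Hnf4g was most like Aqp11, Dgat1, the triglyceride-forming enzyme, and Gna11 (each 0.97). Ppara was most like Acadvl, an enzyme of fatty acid oxidation, Slc26a3 and Pcsk5 (each 0.89). Within the members, Hnf4g and Creb3l3 had r = 0.87, and Cdx1 ran against Creb3l3 (-0.74) and Maf (-0.72). For Gata6 the closest gene reached only 0.71 (Mpnd) and for Hnf4a 0.76 (Paqr4).

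The second question was whether EIPA changed the factors within a class. Sums per library were compared by edgeR's quasi-likelihood test (2 libraries per group, p-values adjusted over every tested gene by Benjamini-Hochberg, called under 0.05), first without the experiment in the model and then with it as a replicate block, since replicate numbers mark the 2 experiments. With the block 1 residual degree of freedom is left, so its small p-values rest on a spread shared over genes. Where groups are said below not to overlap, the share of all genes that did the same was not counted. Groups of 2 often separate by chance, so this is description only.

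In early enterocyte-like cells Maf and Creb3l3 were the members that moved most. Creb3l3 had 17.0 and 11.0 CPM under vehicle against 37.4 and 38.8 CPM under EIPA, and the groups did not overlap (means 14.0 ± 4.25 and 38.1 ± 0.960, SD, n = 2 each). Its log2 fold change was 1.57 (SE 0.20, edgeR adjusted p = 0.0665), and with the replicate block it rose by 1.59 (adjusted p = 3.96e-05). Maf had 4.17 and 6.23 CPM against 8.44 and 18.4 CPM, again without overlap, with a log2 fold change of 1.48 (SE 0.40, edgeR adjusted p = 0.277) and, with the block, a rise of 1.48 (adjusted p = 0.000181). The -EIPA levels of Maf lay below those of Paneth-like cells in the same libraries (5.12 and 8.02 CPM), so they may be background and the size of this change is uncertain. DESeq2 also called both (adjusted p = 1.79e-08 for Creb3l3 and 0.0143 for Maf). In the secretory classes Creb3l3 stood higher with EIPA in both experiments too. Paneth-like cells had 12.6 and 8.94 against 24.6 and 17.8 CPM, and EEC-like cells 11.8 and 6.91 against 23.7 and 15.5 CPM. Goblet-like cells had 9.34 and 4.41 against 9.60 and 13.3 CPM, and tuft-like cells 16.5 and 8.39 against 25.3 and 16.9 CPM. The rise was thus not particular to enterocyte-like cells, and the part of background in it was not tested.

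Hnf4g stood at 101 and 93.1 CPM without and at 119 and 131 CPM with EIPA in early enterocyte-like cells, without overlap. Its log2 fold change was 0.48 (SE 0.11, edgeR adjusted p = 0.237), and it was called with the block (0.48, adjusted p = 0.00328). Ppara had 24.0 and 17.0 CPM against 29.0 and 21.8 CPM: the groups overlapped, yet +EIPA was higher in both experiments, and the block called it (0.43, edgeR adjusted p = 0.024, against 0.527 without). Cdx1 had 142 and 150.3 CPM against 107 and 118 CPM, and fell with the block (-0.26, edgeR adjusted p = 0.0409, against 0.477 without).

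Hnf4a, Cdx2, Gata4, Gata6 and Klf5 were not called in early enterocyte-like cells by either fit, with log2 fold changes of 0.01, -0.08, -0.01, -0.00 and -0.16. In all, 0 of 10 members were called without the block, where 0.103% of 11607 genes were, and 5 of 10 with it, where 8.01% were. At an unadjusted edgeR p under 0.05 stood 3 members and 10.5% of all genes without the block. The median log2 fold change was 0.01 over the members and 0.00 over all genes tested.

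In mature enterocyte-like cells Maf had 19.7 and 20.4 CPM under vehicle against 28.7 and 41.0 CPM under EIPA. Every +EIPA value lay above both -EIPA values, the log2 fold change was 0.94 (SE 0.20, edgeR adjusted p = 0.133), and Maf rose with the block (0.92, adjusted p = 0.0177) and by DESeq2 (0.97, adjusted p = 0.00252). Creb3l3 had 212 and 134 CPM against 260.4 and 240.4 CPM, also without overlap, with a log2 fold change of 0.67 (SE 0.24, edgeR adjusted p = 0.271, and 0.0543 with the block). Hnf4g had 186 and 179 CPM against 194 and 245 CPM (0.41, SE 0.17, edgeR adjusted p = 0.314).

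Cdx1 and Klf5 stood lower with EIPA in the mature class without passing the threshold. Cdx1 had 86.4 and 107 CPM against 62.7 and 56.7 CPM, a log2 fold change of -0.55 (SE 0.14, edgeR adjusted p = 0.182, and 0.0597 with the block). Klf5 had 336 and 324 CPM against 237 and 221 CPM, a log2 fold change of -0.39 (SE 0.14, edgeR adjusted p = 0.269, and 0.148 with the block). In both genes the groups did not overlap. The other members lay between -0.18 (Gata4) and 0.18 (Gata6). Members called were 0 of 10 without the block (0% of 12569 genes) and 1 of 10 with it (4.47%), and 5 of 10 members had an unadjusted edgeR p under 0.05, as had 15.7% of all genes. The median log2 fold change was 0.10 over the members and -0.04 over all genes. Without -EIPA replicate 1, the fit with no block called 1324 genes in the mature class, with Maf, Creb3l3 and Cdx1 among them. Without -EIPA replicate 2, +EIPA replicate 1 or +EIPA replicate 2 it called 129, 41 and 1 genes there, and no member. Leaving out 1 library leaves its group with 1, which is then assumed to vary like the other group. In the early class the same fit called 616 genes without that library (Creb3l3 and Ppara among them), 116 without -EIPA replicate 2 and 49 without +EIPA replicate 1 (Maf and Creb3l3 in both), and 16 with no member without +EIPA replicate 2. With no filter on low counts it called Hnf4g, Maf and Creb3l3 in the early class, among 662 of 17429 genes. In the mature class it then called Maf, Creb3l3 and Cdx1, among 1083 of 18863 genes. With uncorrected clusters it called Hnf4g and Creb3l3 in the early class, among 257 of 12046 genes.

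In ISC-like cells Klf5 had 229 and 249 CPM under vehicle against 189 and 178 CPM under EIPA, with no overlap. The log2 fold change was -0.31 (SE 0.09, edgeR adjusted p = 0.999), and Klf5 fell with the block (-0.31, adjusted p = 1.09e-06). Hnf4a fell with the block too (-0.20, edgeR adjusted p = 0.044, against 0.999 without), from 101 and 83.6 CPM to 83.2 and 70.5 CPM. Maf was called upward with the block (0.89, edgeR adjusted p = 0.0445), but at 1.27 and 1.48 against 1.65 and 3.09 CPM it stood at levels that may be background, as described above. The 14 ISC markers summed to 7016 and 8840 CPM under vehicle against 6224 and 6708 CPM under EIPA in this class, and the secretory progenitor markers to 445 and 562 CPM against 405 and 438 CPM, both without overlap. Revival markers stood at 25.3 and 106 CPM against 52.5 and 126 CPM, higher in both experiments. The part of these shifts in the members' values was not tested. Members called were 0 of 10 without the block (0% of 11843 genes, 1 member and 3.76% of all genes at an unadjusted p under 0.05, and no member by DESeq2 among its 22 genes) and 3 of 10 with it (6.81%).

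Over all cells kept, shares of cell classes and levels within cells enter together. Creb3l3 went from 44.3 and 22.0 to 71.6 and 58.3 CPM and Maf from 5.60 and 5.84 to 10.2 and 13.9 CPM. Both rose with the block and by DESeq2, and Cdx1 fell by both, from 123 and 129 to 99.1 and 97.3 CPM. Without the block 0 of 10 members were called (0% of 15890 genes, with 5 members and 10.1% of all genes at an unadjusted p under 0.05), and with it 3 of 10 (5.28%).

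**Figure D3:**
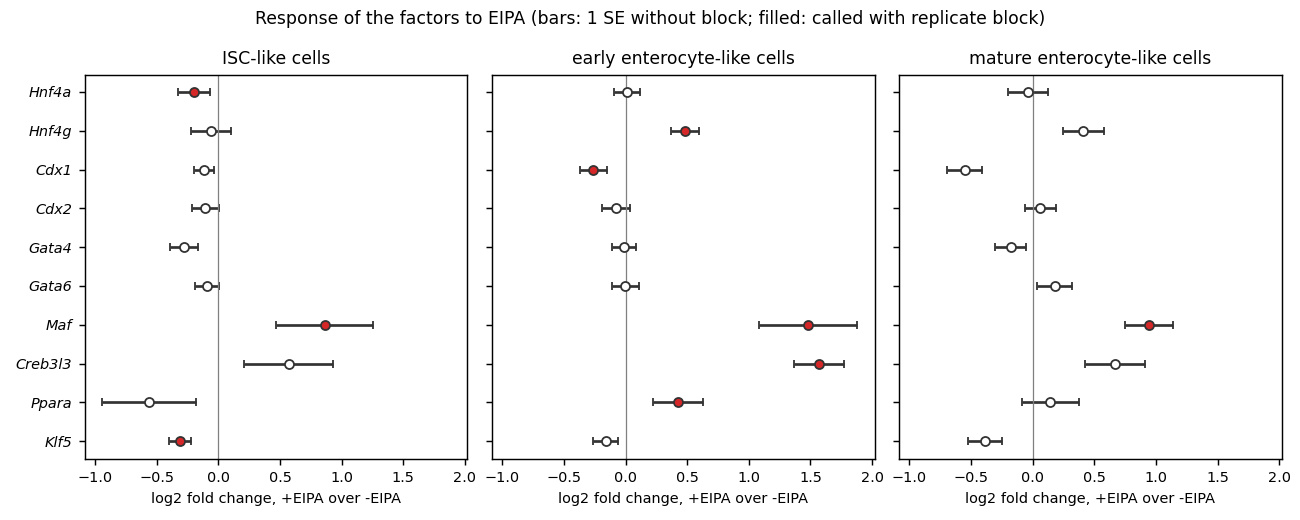
Log2 fold change of +EIPA over -EIPA for each factor in ISC-like, early and mature enterocyte-like cells, with bars of 1 SE from edgeR without the block (n = 2 libraries per group). Filled points passed the threshold with the replicate block: Hnf4a, Maf and Klf5 in ISC-like, Hnf4g, Cdx1, Maf, Creb3l3 and Ppara in early, and Maf in mature enterocyte-like cells.

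Whether the effect of EIPA differed between ISC-like and mature enterocyte-like cells was tested by edgeR as an interaction with the library as a block. No member passed (0 of 10, against 0.877% of 13004 genes), and 4 members had an unadjusted p under 0.05, as had 17.5% of all genes. The largest difference was that of Ppara, whose log2 fold change was 0.73 higher in mature cells (SE 0.22, edgeR adjusted p = 0.148). Ppara stood lower with EIPA in ISC-like cells (4.59 and 2.69 against 2.90 and 1.78 CPM), where its levels are near those of Paneth-like cells (3.26 to 6.77 CPM). Hnf4g differed by 0.49 (SE 0.20, edgeR adjusted p = 0.239) and Cdx1 by -0.40 (SE 0.13, edgeR adjusted p = 0.169). With 1 library left out, and its group again assumed to vary like the other, the count changed: without -EIPA replicate 1 the test called 3390 of 13451 genes and 4 members (Hnf4g, Cdx2 and Gata6 higher and Cdx1 lower in mature cells), and without -EIPA replicate 2 it called 615 of 13157 genes and 2 members (Hnf4g and Ppara, higher). Without +EIPA replicate 1 it called 7 genes and without +EIPA replicate 2 it called 1, in both cases with no member.

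Other measures moved with EIPA inside the same classes. The sum of the 16 mature enterocyte markers, all above 0 in every library, went from 40134 and 27316 CPM to 56356 and 56506 CPM in mature enterocyte-like cells and from 4588 and 3088 CPM to 7107 and 6432 CPM in early ones. The Fabp1-led cluster made up 34.1% and 25.1% of mature enterocyte-like cells without and 43.9% and 43.0% with EIPA, and the Gstm3-led cluster 42.6% and 45.7% against 33.3% and 31.6%. Revival markers went from 159 and 173 to 274 and 465 CPM in the mature class and from 60.5 and 85.7 to 127 and 201 CPM in the early class. In the early class the 7 secretory progenitor markers went from 231 and 227 to 155 and 153 CPM and proliferating markers from 619 and 888 to 507 and 515 CPM. ISC markers went from 513 and 784 to 470 and 434 CPM in that class, and Paneth markers from 582 and 1613 to 876 and 2195 CPM. In the mature class the secretory progenitor markers went from 149 and 181 to 107 and 104 CPM. Paneth and Goblet markers stood higher with EIPA in both experiments there, though the groups overlapped. Paneth markers went from 659 to 945 CPM in experiment 1 and from 2111 to 2788 CPM in experiment 2, and Goblet markers from 610 to 824 CPM and from 1167 to 1714 CPM. The part of these shifts in the members' values was not tested. In fits of single clusters, the block gave 830 of 11561 genes called in the Gstm3-led, 1061 of 11145 in the Fabp1-led and 484 of 9937 in the Apoa4-led cluster. Maf rose with the block in all 3 of them, by 0.64 in the Gstm3-led (edgeR adjusted p = 0.00389), 0.83 in the Fabp1-led and 1.57 in the Apoa4-led cluster. In the Apoa4-led cluster Maf was also called without the block (1.57, edgeR adjusted p = 0.0241). The cells of that cluster were shallow (median 4257 UMIs) with 14.5% mitochondrial UMIs, as given above. Creb3l3 rose in the Gstm3-led (0.77) and the Apoa4-led cluster (1.21, edgeR adjusted p = 0.0447) and was not called in the Fabp1-led one (0.36, adjusted p = 0.104). Cdx1 fell with the block in the Gstm3-led and Fabp1-led clusters (-0.46 and -0.44), and Klf5 in the Gstm3-led one (-0.42, edgeR adjusted p = 0.0181).

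The third comparison, +Dox against -Dox, has 1 library per group, so ratios are given with exact 95% intervals that cover counting error only, and no test. The spread between cultures is not in these intervals. Maf was higher with Dox in mature enterocyte-like cells. It had 16.1 CPM without and 42.5 CPM with Dox there (log2 ratio 1.40, 1.29 to 1.52) and 5.31 against 13.9 CPM in early ones (1.38, 1.04 to 1.73). Creb3l3 had 98.0 against 166 CPM in the mature class (0.76, 0.71 to 0.81) and 6.04 against 18.3 CPM in the early class (1.60, 1.29 to 1.92). In -Dox the early levels of both genes lay below those of Paneth-like cells (5.67 CPM for Maf and 11.5 CPM for Creb3l3), so they may be background and these early ratios are uncertain in size. With classes from marker scores they were 0.94 for Maf and 0.75 for Creb3l3. In ISC-like and proliferating-like cells both genes lay below Paneth-like cells in both libraries, and no change is read there.

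Klf5 and Cdx1 stood lower with Dox. In mature enterocyte-like cells Klf5 had 375 CPM without and 241 CPM with Dox (log2 ratio -0.64, -0.67 to -0.61), and Cdx1 86.4 against 58.8 CPM (-0.56, -0.62 to -0.49). In the early class these ratios were -0.35 and -0.19. Hnf4g was higher in the mature class (196 against 245 CPM, 0.33, 0.29 to 0.36) and had 99.4 against 99.2 CPM in the early class (-0.00, -0.10 to 0.09). The early ratio depended on how classes were drawn, at 0.24 (0.09 to 0.39) with uncorrected clusters and -0.28 (-0.38 to -0.19) with marker scores. Hnf4a was lower with Dox in both (-0.38 early, -0.26 mature), and Gata6 lay between -0.11 and -0.02 in the absorptive classes, its sign in the mature class turning from -0.07 to 0.04 with TMM scaling.

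In mature enterocyte-like cells, log2 ratios reached 0.5 for 2 of 10 members (Maf and Creb3l3), against 7.89% of 6957 genes at 10 CPM or more, and -0.5 for 2 of 10 (Cdx1 and Klf5), against 10.9%. In early enterocyte-like cells 7061 genes averaged 10 CPM or more over both libraries. Of the members among them Creb3l3 alone reached the upper limit, against 3.8% of all, and none the lower, against 4.28%. Creb3l3 was kept there through its +Dox level (6.04 CPM without and 18.3 CPM with Dox). Maf had 5.31 and 13.9 CPM, averaged under 10 CPM and is not among these genes. The median log2 ratio over these genes was -0.06 in the mature and -0.07 in the early class. The 16 mature markers summed to 37706 CPM without and 58578 CPM with Dox in the mature class, and the Fabp1-led cluster was 39.5% of that class without and 55.9% with Dox. Paneth markers summed to 1004 against 2944 CPM there, Goblet markers to 917 against 1812 CPM and revival markers to 170.4 against 337 CPM. The median cell of the class had 11101 UMIs and 5.50% mitochondrial UMIs without Dox and 16851 UMIs and 7.42% with it. In the early class mature markers summed to 4952 CPM without and 10684 CPM with Dox, and revival markers to 93.1 against 261 CPM. Paneth markers summed to 824 against 2222 CPM in that class, and proliferating markers to 725 against 439 CPM. The part of these values in the ratios was not tested. With TMM scaling, which the EIPA fold changes also use, the mature Dox ratios were 1.51 for Maf, 0.86 for Creb3l3, 0.43 for Hnf4g, -0.45 for Cdx1 and -0.53 for Klf5, so that scaling moves each up by 0.11.

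**Figure D4:**
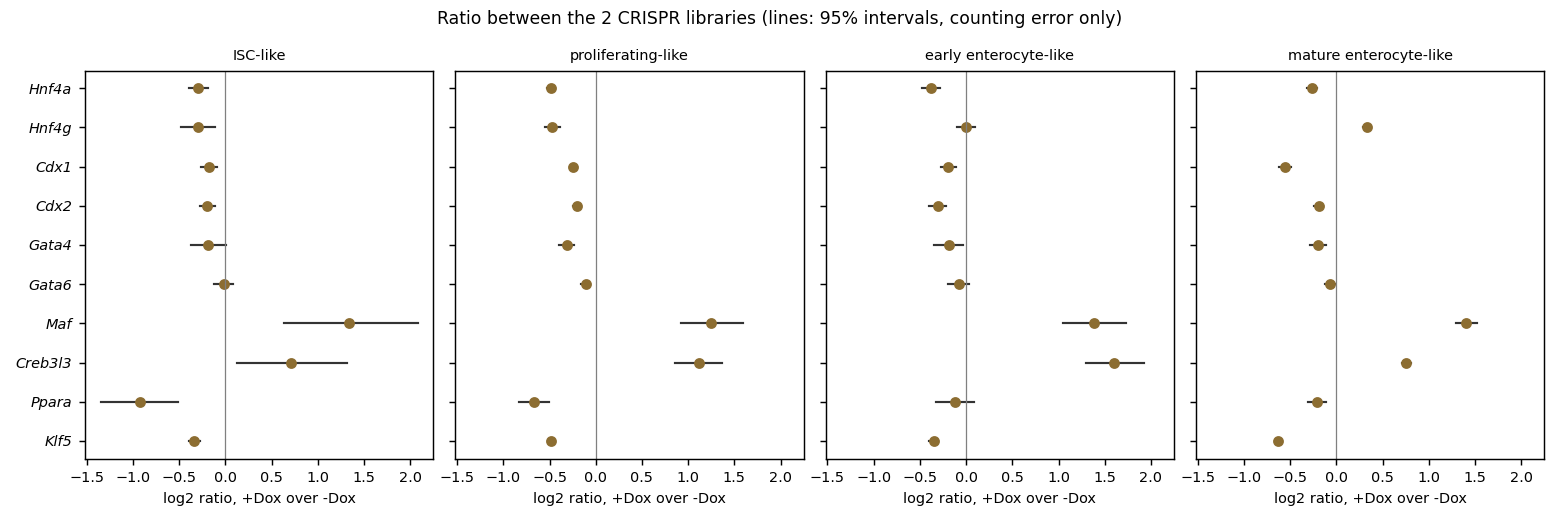
Log2 ratio of +Dox to -Dox for each factor in 4 absorptive classes, with lines for 95% intervals of counting error (1 library per group). Maf and Creb3l3 lie to the right of 0 and Klf5 to the left in each class, but the Maf and Creb3l3 levels behind the ISC-like and proliferating-like points may be background.

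Genes that these factors are known to control were described from lists chosen by function. Of 9 lipoprotein genes, 6 of the 7 at 10 CPM or more were higher in mature enterocyte-like than ISC-like cells in all 6 libraries, where 31.3% of all genes were. With EIPA 0 of 8 tested were called in the mature class without the block, and with it 6 rose and 1 fell, where 4.47% of all genes were called, with a median log2 fold change of 1.15 against -0.03 over all genes tested. Apoa4, a secreted apolipoprotein, had 1005 and 401 CPM under vehicle against 1548 and 1449 CPM under EIPA (1.38 with the block, edgeR adjusted p = 0.0295). Apoc3 had 478 and 249.5 CPM against 924 and 1267 CPM (1.79, edgeR adjusted p = 0.0177). Mttp, which loads lipid onto lipoproteins, had 469 and 292 CPM against 630.3 and 542 CPM (0.80, edgeR adjusted p = 0.0362). Apob, the lipoprotein backbone, rose by 0.94 with the block, and Ttr, the thyroxine carrier, fell by 0.86. In the early class Apoc2 was the 1 gene of the list called without the block, where 0.103% of 11607 genes were. With the block 7 of 8 tested rose there and 1 fell, where 8.01% of all genes were called. Apoc2 had 7.50 and 6.28 CPM under vehicle against 24.8 and 33.2 CPM under EIPA in the early class. In ISC-like cells it had 7.98 and 5.60 against 16.5 and 18.9 CPM, so its early vehicle level may be background. With the block Apoc2, Apoc3 and Apoa4 rose and Ttr fell in ISC-like cells too, where 6.81% of all genes were called. Apoa4 had 29.2 and 12.2 against 71.4 and 54.9 CPM in the early class. In ISC-like cells Apoa4 had 20.5 and 7.86 against 35.3 and 22.8 CPM. Apoc3 had 14.2 and 8.41 against 37.3 and 39.3 CPM (early) and 6.64 and 3.34 against 16.7 and 16.6 CPM (ISC-like). The part of background in these early rises was not tested.

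Of 7 CDX2 target genes of the brush border and cell contacts, all 7 were higher in mature than ISC-like cells in all 6 libraries (31.3% of all genes), while Cdx2 itself was level. Alpi, Lct and Mep1a averaged 10 CPM or more only in the mature of these classes, so the limit favoured their direction. With EIPA 0 of 7 were called without and 4 with the block in the mature class (Alpi, Lct, Sis and Heph, all upward, against 4.47% of all genes), with a median of 0.75 against -0.03 over all genes. Sis, the sucrase-isomaltase, had 1555 and 831 CPM under vehicle against 2109 and 2114 CPM under EIPA. In early enterocyte-like cells 6 of 6 tested rose with the block, where 8.01% of all genes were called. Among them Vil1, the villin gene, rose by 0.33 (edgeR adjusted p = 0.0115). With the block Alpi and Sis rose in ISC-like cells too, where 6.81% of all genes were called.

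Of 10 transporters of sugars, peptides and amino acids, some of which depend on MAF, all 8 at 10 CPM or more were higher in mature than ISC-like cells in all 6 libraries (31.3% of all genes). Slc2a2, Slc2a5, Slc7a9, Slc6a19 and Slc3a1 averaged 10 CPM or more only in the mature of these classes, so the limit favoured their direction. With EIPA 0 of 10 were called without and 6 rose with the block in the mature class, where 4.47% of all genes were called (median 0.74, against -0.03 over all genes). Slc5a1, the sodium-glucose transporter, had 442 and 227 CPM under vehicle against 629 and 716 CPM under EIPA, 1149.6 CPM without Dox and 2640.4 CPM with Dox.

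Of 18 PPARA target genes, 9 of the 11 at 10 CPM or more were higher in the mature class in all 6 libraries (31.3% of all genes). With EIPA 0 of 14 were called in the mature class by either fit (median 0.15 with the block, against -0.03 over all genes), and in the early class 2 of 11 rose with the block, where 8.01% of all genes were called. Acadl, an enzyme of fatty acid oxidation, had 104 and 97.5 CPM against 122 and 115 CPM there (0.35, edgeR adjusted p = 0.00978).

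Among 28 other transcription factors of the epithelium, 24 reached 10 CPM. Of these, 16 were higher in mature than ISC-like cells in all 6 libraries (31.3% of all genes) and 5 lower (51.4%). Nr1i3, Nr1h4 and Ppargc1a, among others, averaged 10 CPM or more only in the mature of these classes, so the limit favoured their direction. With EIPA 0 of 28 were called without the block in the mature class, and with it 1 rose and 1 fell (4.47% of all genes called), the latter being Ehf, an ETS factor (-0.63, edgeR adjusted p = 0.049). Ehf had 73.1 and 84.5 CPM under vehicle against 52.7 and 40.3 CPM under EIPA. In the early class 27 were tested, and with the block 3 rose and 2 fell, where 8.01% of all genes were called. There Ppargc1a, a coactivator of PPARA, rose with the block (1.17, edgeR adjusted p = 0.00336), as did the nuclear receptors Nr1i3 and Nr1h4, while Elf3 and Foxa1 fell.

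Genes of ileum, colon or stomach served as a check of region. Of 9, Car1 and Muc5ac had no UMI in the absorptive classes of any library. Slc51a and Slc51b, which export bile acids and are known best from the ileum, were the 2 that reached 10 CPM in the mature class, with 77.6 and 43.5 CPM (Slc51a) without and 117 and 101 CPM with EIPA. Both were called upward with EIPA in the mature class with the block, where 4.47% of all genes were called, and neither without it, where 0% were. Fabp6, the ileal bile acid binding protein, stood at 0.554 to 6.52 CPM in the mature class.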

How the data were processed

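The 10 factors and the gene lists were chosen with earlier results of these data known. The authors deposited raw UMI counts per gene and cell (10x 3′ v3.1 libraries, Cell Ranger 6.1.2, mm10, per the labels). Whether counting used strand is not given in the sources used here, and limits on cells were not taken from the study. Here a cell was kept if it held 1000 genes or more and its mitochondrial share stayed below 20%. Pearson residuals of 3000 genes (91 listed genes held out) gave 45 principal components. These were corrected by Harmony, coded here in numpy, and clustered by Leiden (resolution 0.8, igraph 0.11.9). Scrublet was run in scanpy 1.11.5. Clusters were named from marker lists. Kept UMIs were 161670015 to 239368573 per library. Sums per library and class were tested by edgeR 4.0.16 (TMM, filterByExpr, Benjamini-Hochberg), with DESeq2 1.42.0 as an alternative, and the code was tested on simulated data. The study's own records pair replicate 1 with 1 and 2 with 2, and libraries of 1 number deviated together from their groups' means, with correlations of 0.62 (ISC-like), 0.57 (early), 0.47 (mature) and 0.69 (all cells), so the numbers were taken to pair the libraries. Doublets were not removed: Scrublet's threshold marked 0 to 0.00793% of cells in 3 libraries and had not worked there. All 10 members are described, with up to 3 genes most alike, and list genes that were called or among the 4 of highest level. Promoter sequences are those of RefSeq. No library was left out, and the CRISPR-Cas9 line enters no test. The level of the gene targeted in that line, and of a few listed genes, is not reported here.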

Additional observations from a re-analysis of the deposited data

How the results depend on the processing

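Counts of genes called by edgeR between +EIPA and -EIPA depended strongly on the model, from 0 in ISC-like, mature and all cells and 12 in early enterocyte-like cells. The replicate block gave 806 in ISC-like, 930 in early, 562 in mature and 839 in all cells. DESeq2 gave 22, 185, 477 and 614, and no filter on low counts gave 127, 662, 1083 and 198. Leaving out 1 library at a time gave 1 to 6 in ISC-like, 16 to 616 in early, 1 to 1324 in mature and 0 to 137 in all cells, the highest each time without -EIPA replicate 1. For the difference between classes such fits gave 1 to 3390 genes, against 114. Uncorrected clusters gave 2 in ISC-like and 257 in early cells, classes from marker scores 2 in early and 2 in mature cells, and strict limits on cells 1 in mature cells. Removing the 10% of cells with the highest doublet scores, chosen after seeing the data, gave 2 in early and 13 in mature cells. Single clusters, also added after seeing the data, gave 209 (Apoa4-led), 8 (Fabp1-led) and 30 (Gstm3-led) genes, and 484, 1061 and 830 with the block. The causes were not tested.

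Of 520 member fold changes under EIPA, 430 kept their direction and side of the threshold, 46 passed it only under the alternative and 44 turned direction. Library-size scaling took the median of all genes from 0.00 to -0.11 in early and from -0.04 to -0.18 in mature cells. It turned Hnf4a in early (-0.10), Cdx2 in mature (-0.077) and Gata6 in all cells (-0.065). Uncorrected clusters turned Hnf4g (0.14) and Ppara (0.061) in ISC-like and Gata4 (0.088) and Klf5 (0.030) in early cells. Doublet removal turned Hnf4a (-0.014), Gata4 (0.0055) and Gata6 (0.011) in early cells, and strict limits turned Gata6 there (0.00026), as did the replicate block (0.0019). Marker scores turned Hnf4a in early (-0.031) and mature (0.0039) and Ppara in mature cells (-0.025). In the Apoa4-led cluster Hnf4a (0.19, 0.22 with the block), Gata4 (0.19, 0.20) and Ppara (-0.083, -0.088) turned, in the Fabp1-led one Hnf4a (0.070, 0.074) and in the Gstm3-led one Cdx2 (-0.063, -0.063).

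With 1 library left out at a time, signs turned for Hnf4g in ISC-like cells (-0.25 to 0.15), Cdx2 in ISC-like (-0.21 to 0.0039) and early (-0.17 to 0.017), Gata4 in early (-0.039 to 0.021), and Gata6 in early (-0.096 to 0.098) and all cells (-0.059 to 0.094). They also turned for Hnf4a in early (-0.050 to 0.075), mature (-0.20 to 0.16) and all cells (-0.17 to 0.0096) and for Ppara in mature (-0.13 to 0.45) and all cells (-0.081 to 0.55). The difference between classes turned for Maf (-0.042 to 0.37) and Klf5 (-0.19 to 0.083). Of 123 Dox values 81 kept within their limits, which for ratios are their intervals. A few of the 123 are counts of intervals that exclude 0 and not ratios. In all, 4 ratios whose interval excluded 0 turned: with uncorrected clusters Hnf4g (0.34) and Ppara (0.069) in ISC-like and Gata4 (0.033) in early cells, and with TMM Gata6 in mature cells (0.036). Hnf4g in early cells, whose interval held 0, went from -0.00 to 0.24 with uncorrected clusters. Of 30 class ratios 26 moved by less than the SD over all 6 libraries, which takes in line and treatment as well as replicates.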

Other observations

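Revival-like cells, a small class with markers such as Clu, held the factors of late enterocytes at variable levels. Creb3l3 had 285 and 44.9 CPM there under vehicle against 202 and 105 CPM under EIPA, and Maf 57.9 and 13.1 CPM against 39.2 and 33.0 CPM. The -EIPA libraries lay on both sides of the +EIPA libraries for both genes. Klf5 had 459 CPM without and 299 CPM with Dox in this class, and Cdx1 116 and 53.5 CPM. That Cdx1 log2 ratio of -1.12 depended on how the class was drawn, at -0.41 with uncorrected clusters and -0.45 with marker scores. EEC-like cells were the secretory class with the highest Cdx2 level in each library, at 111 to 166 CPM, and Paneth-like cells had 68.9 to 99.5 CPM. In Paneth-like cells Gata4 stood at 15.3 to 26.4 CPM.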
